A study of Mus musculus with 12 samples.

Results

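The genes described here are 4 members of a receptor group that shares DNA elements of the circadian clock: Rorb and Rora, which encode the retinoic acid receptor-related orphan receptors RORβ and RORα, and Nr1d1 and Nr1d2, which encode REV-ERBα and REV-ERBβ. They were taken by gene symbol, and all 4 were found among the 38924 genes in the tables and passed the filter on low counts. Poly(A) RNA of the whole brain was sequenced at an age of 6 weeks in 3 mice for each of 4 genotypes, from a series of high stepper mutants. The genotypes were homozygotes for the h1 allele of Rorb on the C57BL/6J strain, for the h2 allele on B6(Cg)-Tyrc-2J/J, and for the h4 allele on B6.129S7-Il1r1tm1Imx/J, and wild type (WT) mice on C57BL/6J. The effects of allele and background strain cannot be told apart in h2 and h4, and the background of h4 also carries a targeted Il1r1 allele. The study set these genotypes side by side to learn about the effect of the mutations and the function of Rorb.

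RORs and REV-ERBs are nuclear receptors that bind the same response element, an AGGTCA core with an A/T-rich stretch before it, mostly as single proteins. RORs recruit coactivators and raise transcription there, and REV-ERBs, whose ligand is haem, recruit the NCoR corepressor with HDAC3 and lower it. Arntl, which encodes the clock activator BMAL1, is their best known shared target, and BMAL1 with its partner CLOCK in turn activates Nr1d1 and Nr1d2 through E-boxes, which closes a loop that stabilises the daily rhythm. In the brain, Rorb marks layer 4 neurons of the neocortex and sensory relay nuclei, Rora is needed for Purkinje cells of the cerebellum, and the REV-ERBs are expressed in many cell types.

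The promoter windows of the REV-ERB genes and of Arntl are shown because the results below turn on these 3 genes. Each window runs from 250 bases before to 50 bases after a transcript start in the RefSeq annotation of GRCm38.p6, is written 5′ to 3′ on the gene's own strand, and has in capitals any match, on either strand, to the core AGGTCA, to that core with a T before it, or to the E-box CACGTG. The Nr1d2 window is chr14:18239057-18239356 on the minus strand, the Nr1d1 window is chr11:98775328-98775627 on the minus strand, and the Arntl window, the second of 2 listed starts, is chr7:113207261-113207560 on the plus strand.

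Nr1d2: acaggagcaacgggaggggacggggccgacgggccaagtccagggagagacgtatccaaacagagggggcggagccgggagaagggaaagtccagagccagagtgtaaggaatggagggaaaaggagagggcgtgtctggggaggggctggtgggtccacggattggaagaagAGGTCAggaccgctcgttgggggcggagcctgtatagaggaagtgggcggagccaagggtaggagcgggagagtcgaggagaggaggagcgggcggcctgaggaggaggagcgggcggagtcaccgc

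Nr1d1: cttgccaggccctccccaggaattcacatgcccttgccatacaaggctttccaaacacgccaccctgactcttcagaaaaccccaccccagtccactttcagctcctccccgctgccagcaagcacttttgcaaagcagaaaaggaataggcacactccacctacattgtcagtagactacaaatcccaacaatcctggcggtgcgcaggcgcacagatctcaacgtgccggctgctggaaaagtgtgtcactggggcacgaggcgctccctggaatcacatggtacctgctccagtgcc

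Arntl: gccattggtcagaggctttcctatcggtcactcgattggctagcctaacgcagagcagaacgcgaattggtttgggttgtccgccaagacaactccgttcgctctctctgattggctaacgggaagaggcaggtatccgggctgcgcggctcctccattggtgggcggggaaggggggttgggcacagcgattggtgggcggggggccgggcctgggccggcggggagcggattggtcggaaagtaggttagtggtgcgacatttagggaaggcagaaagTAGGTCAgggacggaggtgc

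The Nr1d2 window held AGGTCA with its first base at position -77 from the start. The Arntl window held the longer form, TAGGTCA, at position 30, and the core within it, while the window of the first Arntl start held no match. The Nr1d1 window, the Rora window and both Rorb windows, around the upstream start and an internal start, held no match to any of these motifs. Among the other clock genes searched, Nfil3 held TAGGTCA on the opposite strand at position -12, Clock held AGGTCA on the opposite strand at position -119 in 1 of its 3 windows, Cry1 held CACGTG at position -60, and Npas2 held no match. Over all 32851 promoters in the table, the core was in 16.3%, the longer form in 2.61% and the E-box, which reads the same on both strands, in 7.15%.

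The libraries held 14513825 to 24694178 expected counts, and 16493 genes were tested. The sex of the mice was not balanced over the genotypes. Xist, which is transcribed from the inactive X chromosome of females, was above 100 CPM (counts scaled to the library total) in all 3 WT libraries, in h1 replicate 1, in h2 replicate 2 and in h4 replicates 1 and 3, and at most 1.34 CPM in the other 5. The labels do not give the hour at which the brains were taken, so its part in the levels of clock genes was not tested. Markers of neurons, astrocytes, oligodendrocytes, microglia and endothelium were present in every library, with Snap25 at 1801 to 1970 CPM. The defining genes of pineal gland and pituitary were at or near 0, with Aanat at no more than 0.414 CPM, Asmt and Prl each at 0 in 11 of 12 libraries and Gh at no more than 1.14 CPM. Other genes of these lists were higher, up to 8.44 CPM for Otx2 and 2.62 CPM for Pomc. In whole-brain RNA, fewer cells of a type and less RNA per cell cannot be told apart.

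Per unit of transcript length, the REV-ERB transcripts were the most abundant of the group and Rorb the least. In WT brains the deposited level was 73.2 ± 2.04 TPM (abundance scaled to transcript length and library) for Nr1d2, 64.8 ± 9.90 TPM for Nr1d1, 38.4 ± 1.47 TPM for Rora and 3.71 ± 0.314 TPM for Rorb (SD, n = 3 mice). The ranges of Nr1d2 and Nr1d1 overlapped in WT, at 70.9 to 74.8 TPM and 55.2 to 75.0 TPM. In each mutant the 2 ranges were apart, with Nr1d2 at 75.3 to 86.1 TPM and Nr1d1 at 64.5 to 66.6 TPM in h1, for example.

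Rorb, which carries the alleles, spanned the widest range of the group. Its share of the summed TPM of the 4 genes was 2.93% ± 0.564 in h1, 3.65% ± 0.676 in h2, 1.03% ± 0.0142 in h4 and 2.07% ± 0.204 in WT. For each Rorb transcript there were 6.85 ± 1.59 of Rora in h1, 6.24 ± 1.42 in h2, 20.1 ± 1.85 in h4 and 10.4 ± 0.503 in WT (SD, n = 3 each, ratio of TPM). The h4 ratios, 18.1 to 21.8, lay above all others, and the h1 and h2 ratios, 5.02 to 7.85, below all others. The counts behind Rorb were small, 451 to 765 read pairs per h1 or h2 library, 153 to 166 per h4 library and 344 to 395 per WT library. Counting error alone would give a coefficient of variation of 4.17% in h1, 4.14% in h2, 7.92% in h4 and 5.25% in WT, and the observed values were 22.6% in h1, 17.6% in h2, 3.13% in h4 and 6.54% in WT. The spread of Rorb relative to the count model that edgeR fits (its quasi-dispersion) was above that of 98.4% of the genes tested.

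**Figure D1:**
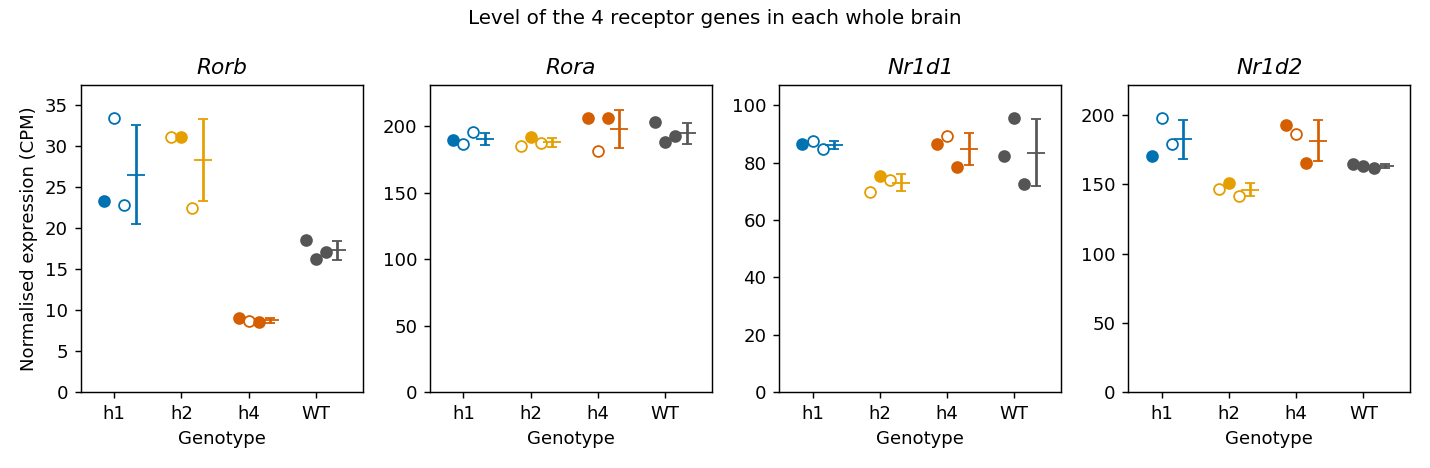
Expression of Rorb, Rora, Nr1d1 and Nr1d2 in CPM (vertical axes, from 0) in each brain, by genotype. Each point is 1 library, filled where Xist was above 100 CPM, and the bars beside the points give mean ± SD of 3 mice. Rorb was lowest in h4 (8.75 CPM on average), Rora lay between 181 and 207 CPM in every brain, and Nr1d2 was lowest in h2 (146 CPM on average).

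Across genes, the test called a difference at a Benjamini-Hochberg adjusted p under 0.05 with edgeR's quasi-likelihood method. Such calls made up 0.625% of the genes tested for h1 against WT, 0.679% for h2 against WT, 4.55% for h4 against WT, 0.722% for h2 against h1, 4.64% for h4 against h1 and 3.22% for h4 against h2. Far more of the 16493 genes had an unadjusted edgeR p under 0.05. They numbered 1619 for h1 against WT, 1892 for h2 against WT and 2766 for h4 against h2. Over the 6 comparisons they ran from 1565 (h2 against h1) to 3148 (h4 against h1). Counts of listed genes at an unadjusted p under 0.05 are to be read beside these numbers. Of the 4 receptor genes, edgeR called 0 in h1 and 0 in h2 against WT, with 2 and 3 at an unadjusted p under 0.05, while DESeq2 called Rorb in h2. In h4 against WT it called 1, Rorb. Between mutants, 1 of 4 was called in h2 against h1 (Nr1d2), 1 of 4 in h4 against h1 (Rorb) and 2 of 4 in h4 against h2 (Rorb and Nr1d2). In a test for any difference among the 4 genotypes, which called 6.67% of genes, Rorb (adjusted p = 0.00409) and Nr1d2 (adjusted p = 0.00839) passed, and Nr1d1 (adjusted p = 0.288) and Rora (adjusted p = 0.614) did not. Rorb differed from WT by a log2 fold change of 0.62 in h1 (95% interval 0.22 to 1.01), 0.70 in h2 (0.31 to 1.1) and -0.98 in h4 (-1.44 to -0.52), of which the last passed the adjusted test. That call was lost when any 1 of the 6 WT and h4 libraries was left out, at log2 fold changes from -1.02 to -0.93 (adjusted p 0.0505 to 0.12), and with Xist as a covariate (adjusted p = 0.0692).

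Rora, the closest relative of Rorb, showed no called difference in any comparison. It measured 189.6, 186.7 and 195.8 CPM in h1, 185.0, 192.0 and 187.4 CPM in h2, 206.5, 181.4 and 206.1 CPM in h4, and 203.1, 188.3 and 192.8 CPM in WT. The 4 groups overlapped in every pairing. Its log2 fold changes against WT were -0.03 in h1 (95% interval -0.12 to 0.06), -0.05 in h2 (-0.14 to 0.04) and 0.02 in h4 (-0.06 to 0.11), with edgeR adjusted p of 0.877, 0.727 and 0.830. Over the 6 comparisons the interval that reached farthest from 0, for h4 against h2, ended at 0.16. The quasi-dispersion of Rora was near the middle of the tested genes (percentile 41.3).

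Nr1d2, which encodes the repressor REV-ERBβ, differed between the mutants. It measured 170.9, 198.1 and 179.0 CPM in h1, 146.4, 150.9 and 141.8 CPM in h2, 193.1, 186.6 and 165.2 CPM in h4, and 164.8, 163.0 and 161.9 CPM in WT. All h1 and h4 libraries lay above every WT library, h4 replicate 3 by a narrow margin, and all h2 libraries lay below every WT library. The 3 WT values were unusually close together. Their coefficient of variation was 0.875%, below the 1.71% that counting error alone would give, which makes separation from WT easier. In TPM, which also adjusts for estimated transcript length, the h4 range of 74.2 to 85.2 overlapped the WT range of 70.9 to 74.8. Nr1d2 was lower in h2 than in h1 (log2 fold change -0.32, SE 0.057, 95% interval -0.44 to -0.20, edgeR adjusted p = 0.0174). It was higher in h4 than in h2 (0.31, SE 0.057, 95% interval 0.19 to 0.43, adjusted p = 0.00868). Between h4 and h1 the log2 fold change was -0.01 (95% interval -0.13 to 0.11).

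Against WT itself, Nr1d2 did not pass in any mutant over all genes. The log2 fold changes were 0.16 in h1 (SE 0.056, edgeR adjusted p = 0.314), -0.16 in h2 (SE 0.057, adjusted p = 0.300) and 0.15 in h4 (SE 0.057, adjusted p = 0.162). The 2-sided exact permutation p was 0.1 for each mutant, the smallest that 3 against 3 libraries can give. The difference between h2 and h1 was called in 19 of 23 alternatives and that between h4 and h2 in 21 of 22. With Xist as a covariate they were -0.32 (adjusted p = 0.00785) and 0.33 (adjusted p = 0.00392). Among the 7 libraries with high Xist alone, which include only 1 h1 and 1 h2 brain, they were -0.18 (adjusted p = 0.829) and 0.24 (adjusted p = 0.152), and without h2 replicate 1 the adjusted p for h2 against h1 was 0.0875. The h1 brain with high Xist had the lowest Nr1d2 of h1 and the h2 brain with high Xist the highest of h2.

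Nr1d1, which encodes REV-ERBα, was also lowest on average in h2, and passed in no comparison. It measured 86.4, 87.4 and 84.6 CPM in h1, 69.7, 75.4 and 73.9 CPM in h2, 86.6, 89.2 and 78.4 CPM in h4, and 82.2, 95.6 and 72.4 CPM in WT. All h2 libraries lay below all h1 and all h4 libraries, and the WT libraries spread over the ranges of all 3 mutants. The log2 fold change was -0.24 for h2 against h1 (SE 0.085, 95% interval -0.42 to -0.05, edgeR adjusted p = 0.365), 0.21 for h4 against h2 (SE 0.086, adjusted p = 0.247) and -0.19 for h2 against WT (SE 0.086, adjusted p = 0.435). The last passed without WT replicate 3 (-0.29, adjusted p = 0.0115). The coefficient of variation of Nr1d1 in WT was 13.97%, against 2.39% from counting error, and its quasi-dispersion was above that of 97.8% of genes tested. That of Nr1d2 was above 95.4%.

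Nr1d1 lies on chromosome 11 at 98767932 to 98775333 on the minus strand (ENSMUSG00000020889, GRCm38, GENCODE M21), and its exons overlap those of Thra, the thyroid hormone receptor α gene on the opposite strand, over 263 of 3077 exonic bases (8.55%). The library kit does not mark strand, so reads from the shared stretch cannot be told apart, and the expected count of Nr1d1 was fractional in 12 of 12 libraries. Thra measured 446.8 to 462.2 CPM in h1, 448.1 to 466.7 CPM in h2, 432.7 to 469.2 CPM in h4 and 467.0 to 492.7 CPM in WT. It was not called in any comparison, with a log2 fold change of 0.00 for h2 against h1 (95% interval -0.07 to 0.08). The other genes share few or no reads: Nr1d2 (ENSMUSG00000021775, chromosome 14, 18204054 to 18239127, minus strand) and Rora (ENSMUSG00000032238, chromosome 9, 68653786 to 69388246, plus strand) had exactly whole expected counts, as deposited, in 12 of 12 libraries and Rorb (ENSMUSG00000036192, chromosome 19, 18930605 to 19111196, minus strand) in 11 of 12.

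**Figure D2:**
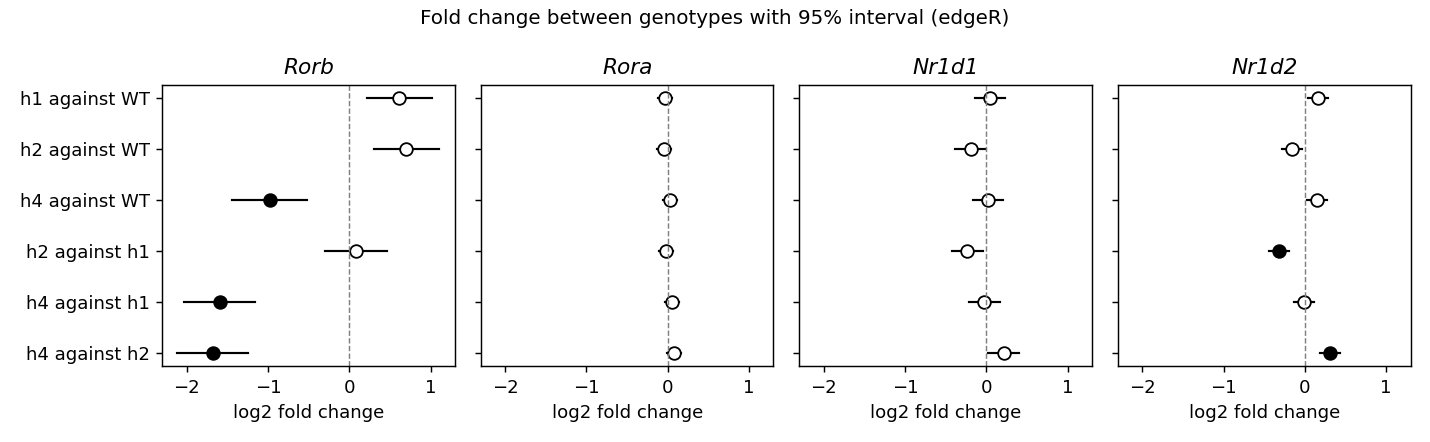
Log2 fold changes (horizontal axes) of the 4 receptor genes in the 6 comparisons of genotypes (rows), with 95% intervals from edgeR. Filled points passed at an adjusted p under 0.05. Rorb passed in the 3 comparisons that involve h4, and Nr1d2 in h2 against h1 (-0.32) and in h4 against h2 (0.31).

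Clock genes with known ROR and REV-ERB response elements were Arntl, its partner genes Clock and Npas2, the repressor gene Nfil3, and Cry1, which encodes an inhibitor of BMAL1. Neither edgeR nor DESeq2 called any of these 5 in h1 or h2 against WT (2 and 1 at an unadjusted p under 0.05 in edgeR), and 1 of 5, Npas2, was lower in h4. The share of all genes called in h4 against WT was 4.55%. Arntl measured 33.2, 28.6 and 29.0 CPM in h1, 37.4, 37.6 and 36.9 CPM in h2, 26.6, 30.6 and 34.3 CPM in h4, and 35.5, 31.2 and 33.4 CPM in WT. Every h2 brain thus had more Arntl than every other brain, the reverse of Nr1d2. Arntl was lower in h4 than in h2 (log2 fold change -0.29, SE 0.076, edgeR adjusted p = 0.0361), and passed in 13 of 22 alternatives. For h2 against h1 it was 0.30 (SE 0.075, adjusted p = 0.0579). Npas2 averaged 25.4 ± 2.30 CPM in h4 and 30.5 ± 3.41 CPM in WT (SD, n = 3 each), with overlapping libraries (log2 fold change -0.26, SE 0.077, adjusted p = 0.0496), and was called in 8 of 22 alternatives. Nfil3, Clock and Cry1 passed in no comparison, and for Nfil3 the log2 fold change was -0.27 in h1 (SE 0.11, adjusted p = 0.337), with h1 at 7.82 to 8.82 CPM and WT at 9.50 to 10.65 CPM.

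Of 15 other genes of the clock loop and its output, 4 were lower in h2 than in h1 and 0 were higher. Over all genes tested, 0.722% were called for h2 against h1. The 4 were Dbp and Tef, which encode transcription factors that carry the rhythm to output genes, the period gene Per3, and Ciart, which encodes a repressor of BMAL1 and CLOCK. Against WT, edgeR called 0 in h1 and 0 in h2 (4 and 3 at an unadjusted p under 0.05, and 2 and 1 with DESeq2). For h2 against h1 the median log2 fold change over the 15 genes was -0.16, beside 0.00 over all genes tested. The number called for h2 against h1 ran from 0 to 6 over the alternatives. Dbp measured 55.5, 58.9 and 58.1 CPM in h1, 43.7, 42.3 and 42.4 CPM in h2, 56.6, 50.8 and 44.2 CPM in h4, and 45.2, 51.7 and 45.2 CPM in WT. It was lower in h2 than in h1 (log2 fold change -0.43, SE 0.069, edgeR adjusted p = 0.00401), and all h1 brains lay above all h2 and all WT brains. For Ciart the value was -0.57 (SE 0.11, adjusted p = 0.00700), for Per3 -0.26 (SE 0.058, adjusted p = 0.0252) and for Tef -0.22 (SE 0.043, adjusted p = 0.00830).

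edgeR called 0 of the 15 in h4 against h2 (7 at an unadjusted p under 0.05, and 3 with DESeq2), where Ciart had 0.38 (SE 0.11, edgeR adjusted p = 0.0590) and Dbp 0.24 (SE 0.071, adjusted p = 0.0680). Of all genes tested, 3.22% were called in h4 against h2. Per1 and Per2, period genes that respond to light in the suprachiasmatic nucleus, had larger but more variable differences. Per2 measured 37.9, 35.7 and 34.9 CPM in h1, 18.8, 23.8 and 23.2 CPM in h2, 31.2, 38.2 and 24.6 CPM in h4, and 35.7, 36.5 and 30.4 CPM in WT. Every h2 brain lay below every other brain, and the log2 fold change of h2 against h1 was -0.71 (SE 0.15, adjusted p = 0.0975). Per1 measured 95.1, 103.2 and 82.2 CPM in h4 and 45.6, 50.9 and 71.5 CPM in h2, without overlap (log2 fold change 0.72, SE 0.17, adjusted p = 0.0601). Hlf, a relative of Dbp and Tef, was lower in h4 than in h1 (-0.25, SE 0.048, adjusted p = 0.00436) and than in WT (-0.18, SE 0.048, adjusted p = 0.0315), and Tef was lower in h4 than in h1 (-0.16, SE 0.043, adjusted p = 0.0293, and 0.0502 with Xist as a covariate).

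**Figure D3:**
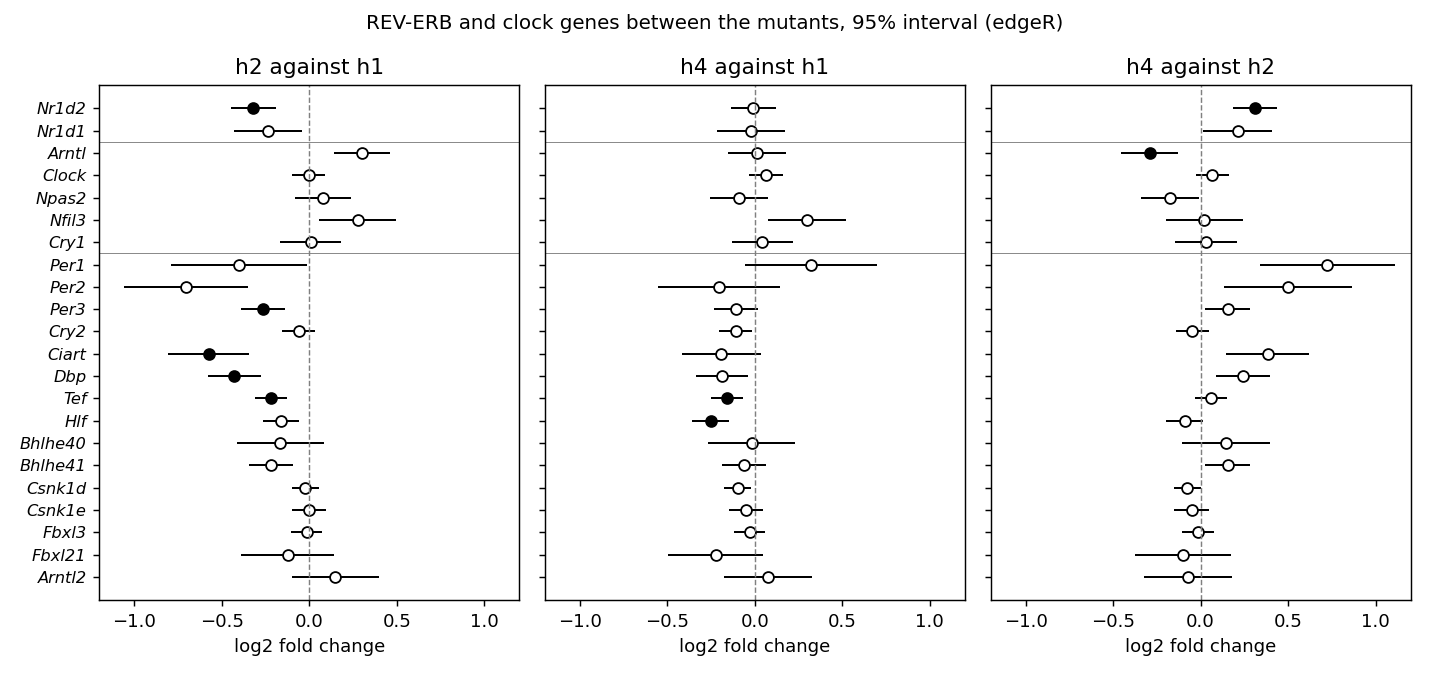
Log2 fold changes (horizontal axes) of the 2 REV-ERB genes, the 5 clock genes with ROR and REV-ERB response elements and the 15 other clock genes (rows) in h2 against h1, h4 against h1 and h4 against h2, with 95% intervals from edgeR. Filled points passed at an adjusted p under 0.05. In h2 against h1, Nr1d2, Per3, Ciart, Dbp and Tef were lower, and in h4 against h2, Nr1d2 was higher and Arntl lower.

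Across the 12 brains, the levels of the REV-ERB genes and of several clock genes moved together. A family of 18 relations was computed on log2(CPM + 0.5), with permutation p-values from 100000 resamples adjusted over the family. Nr1d2 correlated with Arntl (Pearson r = -0.91, Spearman rho = -0.88, permutation p adjusted 0.00108 and 0.00258), Ciart (r = 0.89, rho = 0.89, adjusted permutation p 0.00108 and 0.00258), Dbp (r = 0.85, rho = 0.85, adjusted permutation p 0.00203 and 0.00414) and Per3 (r = 0.84, rho = 0.87, adjusted permutation p 0.00203 and 0.00258). Without the 2 brains farthest from the median of Nr1d2 these r were -0.85, 0.88, 0.76 and 0.77. The 3 h2 brains formed the low end of Nr1d2 and hold much of the range. Within genotypes, after the genotype means were taken off, r was -0.74 with Arntl, 0.69 with Ciart, 0.68 with Dbp and 0.68 with Per3, and none passed after adjustment (lowest adjusted permutation p 0.205 among these). Taking off the means of the high-Xist and low-Xist libraries left r at -0.91, 0.89, 0.85 and 0.86.

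Nr1d1 and Nr1d2 correlated with each other (r = 0.70, rho = 0.73, adjusted permutation p 0.0270 and 0.0228), with r of 0.65 without the 2 farthest brains and 0.35 within genotypes (adjusted permutation p 0.232). Nr1d1 correlated with Dbp (r = 0.76), Ciart (r = 0.74) and Arntl (r = -0.71), with adjusted permutation p of 0.0200, 0.0198 and 0.0266, and not within genotypes after adjustment. With Per3 it had r = 0.62 (adjusted permutation p 0.0605 for r and 0.0376 for rho, 0.68). Neither REV-ERB gene passed with Npas2 or Nfil3, nor did Rora with either REV-ERB gene (r = -0.01 and 0.16). Rorb fell into clusters by genotype, so its 3 relations, which count among the 18, are given only with the genotype means taken off. There r was 0.66 with Nr1d2 (permutation p = 0.00926, adjusted 0.167), -0.01 with Rora and -0.04 with Nr1d1.

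**Figure D4:**
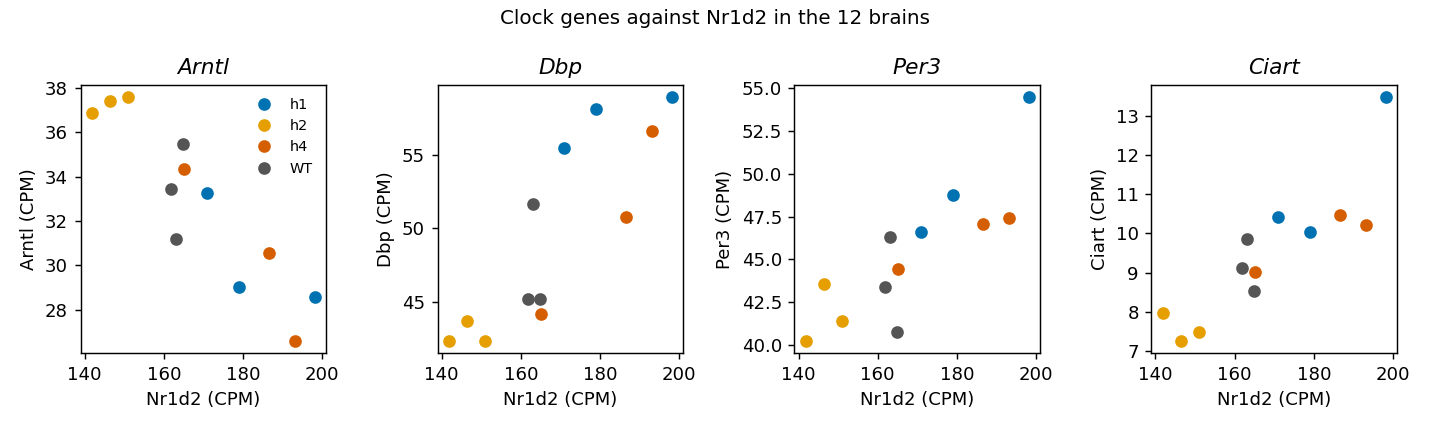
Levels of Arntl, Dbp, Per3 and Ciart (vertical axes, CPM) against that of Nr1d2 (horizontal axes, CPM) in the 12 brains. Each point is 1 library, coloured by genotype. The 3 h2 brains sit at the low end of Nr1d2, 142 to 151 CPM, with Arntl at 36.9 to 37.6 CPM, and Arntl was lower in brains with more Nr1d2.

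The cofactors through which these receptors act were also measured. Of 14 corepressor and coactivator genes, 2 were lower and 1 was higher in h4 than in WT, and edgeR and DESeq2 called 0 in h1 or h2 against WT (4 and 5 at an unadjusted p under 0.05 in edgeR). Against WT, edgeR called 4.55% of all genes in h4, 0.625% in h1 and 0.679% in h2. Ncor1, which encodes the NCoR corepressor, averaged 227 ± 5.19 CPM in h4 and 251 ± 12.01 CPM in WT (SD, n = 3 each), with a log2 fold change at -0.14 (SE 0.038, edgeR adjusted p = 0.0256). The coactivator gene Ncoa1 averaged 126 ± 0.714 CPM in h4 and 143.5 ± 7.64 CPM in WT (-0.18, SE 0.041, adjusted p = 0.00862). Ppargc1a, whose product PGC-1α is a coactivator of RORs, averaged 65.3 ± 3.28 CPM in h4 and 57.1 ± 0.763 CPM in WT (0.19, SE 0.045, adjusted p = 0.0126). The calls of these 3 genes held in 15 to 18 of 22 alternatives. In the edgeR test for any difference among the genotypes, Ncor1 did not pass (adjusted p = 0.0804). Ncoa1 (adjusted p = 0.021) and Ppargc1a (adjusted p = 0.0433) passed it. Ncoa1 was also lower in h4 than in h1 (-0.15, SE 0.041, adjusted p = 0.0282), in 12 of 22 alternatives and not with Xist as a covariate (adjusted p = 0.0702). The median log2 fold change of the 14 genes in h4 against WT was -0.06, beside 0.01 over all genes tested.

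Among genes for ligand metabolism, edgeR called only Ppox, beside 4.64% of all genes in h4 against h1 and 3.22% in h4 against h2. Of 12 genes of haem synthesis and breakdown, haem being the ligand of REV-ERBs, edgeR and DESeq2 called 0 against WT in any mutant (3, 1 and 1 at an unadjusted p under 0.05 in h1, h2 and h4, in edgeR). Ppox, which encodes the penultimate enzyme of haem synthesis, was higher in h4 when set against h1 (log2 fold change 0.39, SE 0.071, edgeR adjusted p = 0.00167) or h2 (0.26, SE 0.070, adjusted p = 0.0402). The difference from h1 passed in 18 of 22 alternatives and that from h2 in 10 of 22, with an adjusted p of 0.0744 with Xist as a covariate and no call by DESeq2. Fech, the last enzyme of the pathway, averaged 59.2 to 59.8 CPM in the 3 mutants and 55.9 ± 1.45 CPM in WT, and Hmox2, a haem oxygenase, 61.0 to 63.8 CPM in the mutants and 59.9 ± 2.89 CPM in WT. Of 12 sterol and oxysterol genes, whose products include ROR ligands, edgeR and DESeq2 called 0 in any of the 6 comparisons, with up to 3 at an unadjusted p under 0.05 and 0 to 2 called over the other alternatives. Cyp46a1, the brain cholesterol 24-hydroxylase, averaged 118, 119 and 112 CPM in h1, h2 and h4 and 116 CPM in WT.

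Among 7 genes reported as REV-ERB targets in brain and glia, Fabp7 and Npas2 were called in h4 against WT and, by edgeR and DESeq2, 0 in h1 or h2 (3 each at an unadjusted p under 0.05 in edgeR). Calls made up 4.55% of all genes in h4 against WT. Fabp7, a lipid-binding protein of astrocytes and radial glia, measured 30.3, 29.3 and 39.2 CPM in h1, 36.6, 35.6 and 42.8 CPM in h2, 77.1, 66.4 and 79.8 CPM in h4, and 40.7, 43.7 and 41.8 CPM in WT. All h4 brains lay above all others. The log2 fold change of h4 was 0.82 against WT (SE 0.12, edgeR adjusted p = 0.00484), 1.17 against h1 (SE 0.12, adjusted p = 0.00112) and 0.95 against h2 (SE 0.12, adjusted p = 0.00279), and each was called in 22 of 22 alternatives. Gfap, another astrocyte gene, was also higher in h4 than in WT (0.38, SE 0.060, adjusted p = 0.00172), and its part in the Fabp7 result was not tested. By group mean, Fabp7 ran from h4 over WT and h2 down to h1, and Nr1d2 from h1 over h4 and WT down to h2.

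Of 43 other nuclear receptor genes, 34 passed the filter on low counts, and edgeR and DESeq2 called 0 in h1 or h2 against WT (1 and 6 at an unadjusted p under 0.05 in edgeR). In h4 against WT edgeR called 2 of the 34. The shares of all genes called were 0.625% in h1, 0.679% in h2 and 4.55% in h4. In h4 against WT, Nr4a2, an orphan receptor of dopamine neurons and an immediate early gene, was higher (39.0 ± 2.80 CPM in h4 and 29.5 ± 0.338 CPM in WT, log2 fold change 0.40, SE 0.082, edgeR adjusted p = 0.00780). Nr2c2, which encodes the orphan receptor TR4, was lower (125 ± 2.51 CPM in h4 and 137.5 ± 3.69 CPM in WT, -0.14, SE 0.039, adjusted p = 0.0334). Both also differed in h4 against h1 (0.48 and -0.15) and in h4 against h2 (0.40 and -0.18). For Nr4a2 the call against WT held in 18 of 22 alternatives, over log2 fold changes of 0.15 to 0.45. Its calls against h1 and h2 held in 19 of 22 and 17 of 22. With Xist as a covariate Nr2c2 no longer passed against WT (adjusted p = 0.0668, 14 of 22 alternatives called) or against h1 (adjusted p = 0.0553, 13 of 22). Nr4a3, a relative of Nr4a2 that is likewise induced by activity, was called in h4 against h1 (1.14, SE 0.25, adjusted p = 0.0452), in 10 of 22 alternatives.

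The estimated transcript length, which RSEM averages over the mix of transcripts it assigns to a gene, was compared with WT by exact permutation tests, which cannot go below p = 0.1 with 3 against 3 libraries, so no difference could pass. The files list 2 transcripts for Nr1d1 and for Nr1d2, 6 for Rora and 5 for Rorb. The mean length of Nr1d2 was 4395, 4433 and 4412 bases in h4 and 4434, 4435 and 4460 bases in WT, a difference of -29.5 bases (exact permutation p = 0.1, adjusted 0.4). The groups were barely apart, at 4433 and 4434 bases. The mean length of Nr1d1 was 2618, 2621 and 2641 bases in h4 and 2666, 2646 and 2651 bases in WT, a difference of -27.9 bases (exact permutation p = 0.1, adjusted 0.4). In the effective length, a second length that RSEM estimates, h4 and WT overlapped for Nr1d2 (exact permutation p = 0.2, adjusted 0.4). For Nr1d1 they did not (exact permutation p = 0.1, adjusted 0.4). Rora varied among brains of 1 genotype by more than between genotypes, from 9725 to 10147 bases in h1 alone. For Rorb, h4 replicates 1 and 2 had 8694 and 8587 bases, the lowest of the 12 values, and h4 replicate 3 had 8953 bases, within the WT range of 8927 to 9124.

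Genes whose levels followed each receptor most closely over the 12 brains were ranked by Pearson r of log2(CPM + 0.5) among 14688 genes, as a description. Rorb was ranked only with the genotype means taken off, because of its clusters by genotype, and the closest included Zdhhc20 (r = 0.97), Map7d2, Map2k5 and Nudt4 (0.93). For Rora they were Dzank1 (0.91), Cep290, Pde3b, Agps and Steap2 (0.87). For Nr1d1 they included Fam84a (0.92), Nt5c2, Gjb6 and Lonrf1 (0.92), and for Nr1d2 Tor1aip2 (0.91), Trp53inp1, Snhg3, Sh3bp2 and Ciart (0.89). After the genotype means were taken off, Nt5c2 (0.96) and Lonrf1 (0.94) stayed among the closest 5 for Nr1d1 and Agps (0.92) for Rora. None of the 5 stayed for Nr1d2, where Hkdc1 (0.97) came first.

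Single markers of the cell types and regions that express these receptors were called only in comparisons with h4. Of all genes tested, 4.55% were called in h4, 0.625% in h1 and 0.679% in h2 against WT, and 4.64% in h4 against h1. Of 8 layer 4 markers, 1 was lower in h4 than in WT, Plxnd1 at 50.6 ± 3.11 CPM in h4 and 59.4 ± 1.25 CPM in WT (log2 fold change -0.23, SE 0.050, edgeR adjusted p = 0.00601), and 0 were called in h1 or h2. The summed level of the 8 was 308 to 318 CPM in h1, 314 to 328.5 CPM in h2, 302 to 308 CPM in h4 and 315 to 330 CPM in WT. The 8 thalamic markers summed to 349 to 370 CPM in h1, 341 to 356 CPM in h2, 321 to 347 CPM in h4 and 346 to 368 CPM in WT, with 0 called against WT. Of these markers, Slc17a6 was called lower in h4 than in h1. The 9 Purkinje markers summed to 1935 to 2004 CPM in h1, 1993 to 2039 CPM in h2, 1781 to 2049 CPM in h4 and 2140 to 2159 CPM in WT. Itpr1 alone measured 930 to 1173 CPM over all brains. Against WT, 1 of the 9, Itpr1, was called, lower in h4 (-0.21, SE 0.041, adjusted p = 0.00403). Another, Pcp4, was called lower in h4 than in h1. The 9 pineal and retinal markers, of which 5 failed the filter on low counts, summed to 15.4 to 19.8 CPM over all brains.

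Single markers of other lists were called. The endothelial marker Cldn5 averaged 20.4 ± 2.89 CPM in h1, 36.0 ± 4.16 CPM in h2, 26.9 ± 1.93 CPM in h4 and 30.3 ± 1.62 CPM in WT (SD, n = 3 each). Against WT it was called in h1 only, where it was lower (log2 fold change -0.57, SE 0.098, edgeR adjusted p = 0.0115). In h2 against WT it had 0.24 (SE 0.093, adjusted p = 0.329). Cldn5 was higher in h2 than in h1 (0.81, SE 0.097, adjusted p = 0.00107) and lower in h4 than in h2 (-0.41, SE 0.096, adjusted p = 0.0290). It was also called higher in h4 than in h1. The astrocyte marker Gfap was higher in h4 than in h2 (0.26, SE 0.059, adjusted p = 0.0274). The choroid plexus, blood, pituitary and spinal cord lists had 0 called members in h2 against h1 and in h4 against h2. Of all genes tested, only 0.722% and 3.22% were called in these comparisons, so 0 calls in short lists say little. Of the 5 pituitary genes only 1, Pomc, was tested. The myelin gene Mbp was higher than in WT in h1 (0.34, SE 0.038, adjusted p = 0.000681) and in h2 (0.17, SE 0.038, adjusted p = 0.0459). Hoxa7, of a list for spinal cord and caudal hindbrain, was low but higher than WT in all 3 mutants, at 0.832, 0.843 and 0.879 CPM in h1, h2 and h4 and 0.246 CPM in WT (1.77, 1.88 and 1.86), and the summed level of that list was 16.8 to 17.6 CPM in h1, 15.7 to 18.4 CPM in h2, 14.1 to 15.8 CPM in h4 and 12.5 to 13.9 CPM in WT. Kl, of the choroid plexus, was higher in h2 (0.37) and h4 (0.25) than in WT. Blood markers summed to 175 to 567 CPM, and the 5 pituitary markers to at most 3.25 CPM. The part of these differences in the receptor and clock results was not tested.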

How the data were processed

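Poly(A) RNA from 12 whole brains was sequenced with an unstranded kit as 100 bp paired ends, per the labels' protocols. Per the submitters' processing notes, Bowtie2 2.2.0 and RSEM 1.2.12 were used, and the sources used here give neither genome build nor annotation. The deposited expected count of a gene is RSEM's estimated number of read pairs, shared among genes where a pair matches several. The deposited TPM is scaled to length and library total, the deposited FPKM was not used in a test, and the deposited length is averaged over estimated transcripts. Of 38924 identifiers, 37607 were found in GENCODE M21 (GRCm38), which gave symbols and positions.

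Expected counts were rounded and fitted with edgeR 4.0.16 in R 4.3.3 (quasi-likelihood with robust dispersions, TMM factors of 0.991 to 1.012, 1 mean per genotype over 12 libraries). The low-count filter removed 22431 genes and left 16493, and the common biological coefficient of variation was 0.0531. Adjusted p are Benjamini-Hochberg values from edgeR over all genes tested, unless another tool is named. Steps were tested on simulated counts with known changes. CPM are expected counts over TMM-scaled totals. Alternatives used DESeq2 1.42.0, limma 3.58.1 on log2(TPM + 1) and log2(TPM + 0.1), other scaling, no filter, a transcript length offset, Xist as a covariate, high-Xist libraries only, the compared genotypes only, and each library left out. Where a genotype keeps 1 library, that library is assumed to vary like the others. Each library is 1 of 3 mice of its genotype, so the error is that between animals. Replicate numbers follow accession order, and in h1 and h2 they match the numbers in the titles.

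The 4 genes and all gene lists were chosen with earlier results of these data known. Listed genes were named where called against WT (up to 3 of smallest adjusted p per list, or 2 of highest CPM where none was called), and those named for a difference between mutants only were chosen after their values were seen, apart from Arntl, Dbp, Per3 and Ciart, which belong to the correlation family. All 4 genes matched the RefSeq promoter table. Some genes that the naming rule selects are not reported here.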

Additional observations from a re-analysis of the deposited data

Results flagged for a closer look

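Several results differed between mutants by a direct test of the difference (edgeR), so that the 2 mutants' changes against the shared WT brains were not alike. For h2 against h1 the log2 fold changes were -0.32 for Nr1d2, -0.57 for Ciart, -0.43 for Dbp, -0.26 for Per3 and -0.22 for Tef. For h4 against h2 they were 0.31 for Nr1d2, -1.68 for Rorb, -0.29 for Arntl, 0.95 for Fabp7, 0.40 for Nr4a2, -0.18 for Nr2c2 and 0.26 for Ppox. For h4 against h1 they were -1.60 for Rorb, 1.17 for Fabp7, 0.48 for Nr4a2, 1.14 for Nr4a3, 0.39 for Ppox, -0.25 for Hlf, -0.16 for Tef, -0.15 for Nr2c2 and -0.15 for Ncoa1. In the high-Xist libraries alone, with 1 h1 and 1 h2 brain, none of the 5 differences between h2 and h1 passed, at log2 fold changes of -0.18 for Nr1d2, -0.48 for Ciart, -0.39 for Dbp, -0.17 for Per3 and -0.16 for Tef.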

How the results depend on the processing

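The differences of Nr1d2 between h2 and h1 and between h4 and h2 kept their direction in every alternative run, and those of Rorb between h4 and h1 and between h4 and h2 also kept their call. The h2 and h1 difference of Nr1d2 was no longer called in high-Xist libraries (-0.18), with limma on log2(TPM + 1) (-0.30) or log2(TPM + 0.1) (-0.30, adjusted p = 0.147), or without h2 replicate 1, over a range of -0.37 to -0.26 with single libraries left out. In high-Xist libraries Nr1d2 also lost the h4 against h2 call (0.24) and the test for any difference (adjusted p = 0.213). Rorb in h4 against WT lost its call with Xist as a covariate (-0.98) and in 6 of 12 leave-outs, without any one WT or h4 library, over a leave-out range of -1.02 to -0.93, and Rorb in h2 passed with DESeq2 (0.70), in high-Xist libraries (0.85) and in 2 of 12 leave-outs, without h1 replicate 2 and without h2 replicate 3, over a leave-out range of 0.61 to 0.85. Nr1d1 passed for h2 against h1 with only those genotypes fitted (-0.24) and for h4 against h2 likewise (0.21). It also passed in 2 of 12 leave-outs for each of these comparisons, over leave-out ranges of -0.26 to -0.21 and 0.17 to 0.26. For h2 against WT its leave-outs ran from -0.29 (without WT replicate 3) to -0.0799, and for any difference its adjusted p from 0.00689 to 0.552. Nr1d2 in h4 against WT ran from 0.10 to 0.21, called without h4 replicate 3 (adjusted p = 0.0165). The cause was not tested.

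The replicate block could be fitted for h2 against h1 only, the pair whose titles share numbers. Same-numbered brains did not deviate together (r = -0.15, -0.11 and 0.03), so the numbers are not taken as pairs. With the replicate block, Nr1d2 had -0.32 (adjusted p = 0.000645), Nr1d1 -0.24 (adjusted p = 0.00617), and 204 genes were called. The fit of the same 2 genotypes without a block gave Nr1d2 -0.32 (adjusted p = 0.00078), Nr1d1 -0.24 (adjusted p = 0.00213) and 193 genes.

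Signs near 0 turned, with no call in either direction. Rora in h1 against WT was 0.019 with the Xist covariate and -0.0541 to 0.00129 over leave-outs, in h4 against WT -0.0100 and -0.0103 with the limma fits and -0.0126 to 0.0806 over leave-outs, and in h2 against h1 0.0173 in high-Xist libraries. Nr1d1 in h1 against WT ran from -0.0515 to 0.155, in h4 against WT from -0.0763 to 0.132 (-0.0235 in high-Xist libraries), and in h4 against h1 from -0.0633 to 0.0275. Nr1d2 in h4 against h1 was 0.0104 with library totals, 0.00938 with the Xist covariate, 0.0120 with the length offset, 0.0142 and 0.0143 with limma, 0.0628 in high-Xist libraries and -0.0553 to 0.0538 over leave-outs. Rorb in h2 against h1 ran from -0.0159 to 0.286. The length difference of Rora in h4 ran from -21.2 to 79.2 bases and that of Nr1d1 in h1 from -18.9 to 0.632 bases.

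Counts of calls over all genes moved. For h1 against WT, h2 against WT, h2 against h1, h4 against h2 and any difference, no filter gave 236, 288, 290, 844 and 1740. High-Xist libraries gave 16, 39, 23, 127 and 414 for these, and 116 for h4 against h1. The Xist covariate gave 30 for h1 and 69 for h2 against WT. The length offset gave 15, 16 and 306 for h1, h2 and h4 against WT, 37, 294 and 205 for h2 against h1, h4 against h1 and h4 against h2, and 336 for any difference. In that order limma gave 0, 11, 157, 3, 87 and 116 on log2(TPM + 1) and 0, 10, 151, 4, 90 and 116 on log2(TPM + 0.1), where h1 against WT had 1373 and 1361 genes at an unadjusted p under 0.05, with edgeR calling 103 and DESeq2 136. DESeq2 gave 183 for h2 against h1 and a fit of only those genotypes 193. Leave-outs ran from 22 to 166, 18 to 348, 230 to 1111, 44 to 160, 313 to 896, 251 to 619 and 550 to 1451 in the order of the 6 comparisons and any difference.

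Within genotypes, r no longer passed an unadjusted permutation test for Nr1d1 with Nr1d2 (0.35), Arntl (-0.42), Dbp (0.64), Per3 (0.36) and Ciart (0.45) and for Nr1d2 with Arntl (-0.74) and Ciart (0.69), passed for Nr1d2 with Nfil3 (-0.69, permutation p = 0.0394), and turned sign for Nr1d2 with Npas2 (0.14) and with Rora (-0.20). On log2(TPM + 1), Nr1d1 no longer passed with Arntl (-0.57), Per3 (0.57) or Ciart (0.41), and its r with Rora turned (0.23). Without the 2 farthest brains that of Rora with Nr1d2 turned (-0.0808). Relations with Rorb are left out here, since they are given only within genotypes.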
